A study of Mus musculus with 12 samples.

Results

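The insulin signalling genes followed here were Insr, Irs1, Irs2, Pik3r1, Akt1, Akt2, Foxo1, Pde3b, Slc2a4 and Tbc1d4, and each of the 10 had at least 1 ATAC-seq peak both in brown fat (BAT) and in inguinal fat (iWAT). All peaks were taken that the deposited tables assign to one of these symbols, the nearest gene, whatever their values. There were 121 such peaks of 58558 in the brown fat table and 77 of 39558 in the iWAT table, 198 of 98116 in all. The study asked how chromatin accessibility differs when adipocytes lack BAF60a, the SWI/SNF chromatin-remodelling subunit encoded by Smarcd1. AKO mice were BAF60a flox/flox animals that carried Adiponectin-Cre, a transgene active in mature adipocytes, so other cells of the whole tissue kept the gene. Flox mice were BAF60a flox/flox without Cre, and the strain of both was C57BL/6. Brown fat came from 3 flox and 3 AKO mice, frozen one by one, and neither their age nor their housing temperature is given in the sources used here. The iWAT came from mice of 6 to 8 months acclimated to cold at 10 °C. Fat pads of 6 mice of each genotype were pooled, minced and divided, so the 3 flox and 3 AKO iWAT samples are aliquots of 1 pool each, and p-values there measure the spread between aliquots and not between animals.

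Insulin binds its receptor, a tyrosine kinase encoded by Insr, and the receptor phosphorylates the docking proteins Irs1 and Irs2. These recruit phosphoinositide 3-kinase through its regulatory subunit, encoded by Pik3r1, and the lipid it makes brings the kinases Akt1 and Akt2 to the membrane. In adipocytes Akt2 phosphorylates Tbc1d4 (AS160), which releases vesicles carrying the glucose transporter GLUT4, encoded by Slc2a4. Akt also keeps the transcription factor Foxo1 out of the nucleus and acts on the phosphodiesterase Pde3b, which lowers cAMP and so restrains lipolysis. ATAC-seq counts the places where a transposase can reach DNA, and a peak is a stretch of such open chromatin. A peak is given to a gene because it is near its start, which does not show that it controls the gene.

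The values are reads in a peak after division by a size factor of the sample, called normalized reads below. Samples held 6336670 to 27500738 reads in peaks in brown fat and 4066720 to 6691161 in iWAT. Of 2 Smarcd1 peaks in brown fat, the one within the gene held 136, 201 and 185 normalized reads in flox and 23.7, 57.9 and 26.9 in AKO mice. The Smarcd1 promoter peak held 369 to 485 in flox and 412 to 497 in AKO. In iWAT only the promoter peak was in the table, with 188 to 249 in flox and 229 to 233 in AKO, so the genotype was not checked there. Peaks of all 7 adipocyte marker genes and all 5 brown adipocyte marker genes were present in both tables. Summed over the peaks of the brown adipocyte markers, brown fat held 19244 to 22757 in flox and 12864 to 14033 in AKO. The adipocyte marker sum there was 21934 to 23328 in flox and 15378 to 21033 in AKO, while the endothelial sum overlapped between genotypes, at 2448 to 2642 and 2367 to 2799. In iWAT the adipocyte sums overlapped, at 3333 to 4144 and 3395 to 3804, and the endothelial sum (4 of 6 genes with peaks) was 766 to 855 in flox and 671 to 740 in AKO. The iWAT lymphocyte sum (2 of 7 genes, none of them Cd3e, Cd4 or Cd8a) was also lower, at 190 to 196 in flox and 137 to 171 in AKO. The skeletal muscle sum (3 of 6 genes, without Ckm) was 797 to 997 in flox and 757 to 789 in AKO, and the nerve sum (2 of 4 genes with peaks) was higher in AKO, at 122 to 132 against 112 to 120. Sums of the brown adipocyte, fibroblast, macrophage and mural lists overlapped in iWAT. The part of these sums in the values of the insulin signalling genes was not tested, and fewer adipocyte nuclei cannot be told apart from less open chromatin per nucleus in whole tissue.

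The windows below show the DNA at 5 places named in the results, in mm10 (GRCm38) and 5′ to 3′ on the plus strand, with motif matches in capitals. The Insr window lies in intron 2, at a brown fat peak with every AKO mouse below every flox mouse. The first Foxo1 window lies about 190 kb past its start and beyond the end of the gene, at the Foxo1 iWAT peak of smallest p. The second Foxo1 window also lies beyond the end of the gene. It holds the only PPAR response element without a mismatch in a brown fat member. The third Foxo1 window holds the region where AKO lay above flox in both depots. The last is the stretch just before an internal exon of Akt2, from the RefSeq promoter table (GRCm38.p6), under an iWAT peak where every AKO aliquot lay above every flox aliquot. Capitals mark matches to the PPAR response element, in 3 mismatches or fewer.
Insr, intron 2, chr8:3252722-3253021: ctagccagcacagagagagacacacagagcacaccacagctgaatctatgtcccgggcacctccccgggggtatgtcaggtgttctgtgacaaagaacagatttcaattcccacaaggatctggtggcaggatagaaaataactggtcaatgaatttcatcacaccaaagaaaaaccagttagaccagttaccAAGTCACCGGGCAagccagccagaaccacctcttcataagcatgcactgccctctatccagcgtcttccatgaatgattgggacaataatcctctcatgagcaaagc
Foxo1, 190 kb past the start, chr3:52458388-52458687: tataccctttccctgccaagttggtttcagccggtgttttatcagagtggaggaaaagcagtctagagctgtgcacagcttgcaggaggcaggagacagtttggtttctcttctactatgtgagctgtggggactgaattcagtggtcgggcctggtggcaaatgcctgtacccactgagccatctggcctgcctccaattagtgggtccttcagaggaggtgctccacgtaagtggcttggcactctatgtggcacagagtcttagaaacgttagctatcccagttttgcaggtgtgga
Foxo1, 234 kb past the start, chr3:52502431-52502730: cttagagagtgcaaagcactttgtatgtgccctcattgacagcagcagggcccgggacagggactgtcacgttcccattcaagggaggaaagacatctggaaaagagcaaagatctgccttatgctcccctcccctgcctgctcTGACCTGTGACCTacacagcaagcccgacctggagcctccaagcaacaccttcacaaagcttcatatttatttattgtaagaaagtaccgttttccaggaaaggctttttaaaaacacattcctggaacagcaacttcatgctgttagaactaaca
Foxo1, 72 kb upstream, chr3:52196094-52196393: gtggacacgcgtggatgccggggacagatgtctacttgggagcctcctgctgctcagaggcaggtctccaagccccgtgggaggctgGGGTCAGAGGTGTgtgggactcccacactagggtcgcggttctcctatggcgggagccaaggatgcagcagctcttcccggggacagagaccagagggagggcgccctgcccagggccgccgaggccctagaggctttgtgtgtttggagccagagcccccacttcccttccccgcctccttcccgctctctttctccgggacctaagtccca
Akt2, internal start, chr7:27607086-27607242: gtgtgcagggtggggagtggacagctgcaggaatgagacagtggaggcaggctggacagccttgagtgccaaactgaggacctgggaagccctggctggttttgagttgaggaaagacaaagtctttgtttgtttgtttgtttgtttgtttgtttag

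The Foxo1 window at 234 kb holds the element on the minus strand, where it reads AGGTCACAGGTCA. The iWAT peak over the same region holds it too. In brown fat flox mice held 514, 381 and 401 normalized reads there and AKO mice 393, 328 and 283. In iWAT flox aliquots held 96.9, 86.7 and 103 and AKO aliquots 84.1, 100 and 80.2. The groups overlapped in both depots, with log2 fold changes of -0.22 and -0.12. The Foxo1 window at 190 kb and the Akt2 window hold none of the motifs searched. The Insr and upstream Foxo1 matches have 3 mismatches. Of the 10 genes, 7 were in the RefSeq promoter table, with 12 start sites. Insr, Pde3b and Slc2a4 were not. In the 250 bases before those starts, the EBF motif matched at Foxo1, a forkhead motif at 1 Akt1 start and a C/EBP motif at Tbc1d4, where 0.779%, 3.17% and 5.08% of all 32851 promoters of that length matched. The PPAR response element matched at 4 of the 12, of Akt1, Akt2 and Tbc1d4, and at 21.3% of all, and the NF1 motif at 0 and 0.825%. The letters of each motif are given with the peak counts.

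The member peaks were spread widely around their genes. Within 50 kb of the start were 60 of 121 in brown fat (49.6%) and 40 of 77 in iWAT (51.9%), where 70.5% and 73% of all peaks were. In brown fat 60 lay in introns, 25 upstream, 22 downstream and 9 over the start. In iWAT these numbers were 33, 23, 11 and 9. All 121 brown fat members and 74 of the 77 in iWAT held at least 10 reads in every sample.

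Summed over all its peaks, each of the 10 genes had a lower mean in AKO than in flox brown fat. The ratio of AKO to flox means ran from 0.736 for Irs2 to 0.907 for Pde3b. It was below 1 in all 10 genes also when reads were scaled to the total in peaks or by TMM, whereas 54.4% of all genes lay below 1 with size factors and 40.7% with total reads. Irs1, the docking protein, held 2775, 2053 and 2247 normalized reads in flox and 2020, 1447 and 1824 in AKO mice. Every AKO mouse lay below every flox mouse for Irs1. Irs2 held 3133, 2382 and 2129 in flox and 1996, 1704 and 1925 in AKO mice. The groups were apart for Irs2 too, with flox 1 well above the other flox mice. Tbc1d4 held 3565, 3175 and 3421 in flox and 3074, 2916 and 2909 in AKO, and Pde3b 1165, 1366 and 1168 in flox and 1086, 1130 and 1142 in AKO, again without overlap. These 4 of 10 genes compare with 8.43% of all genes with every AKO sample below every flox sample, and none of the 10 was apart in the other direction, where 8.97% of all genes were. With scaling to total reads, 2 of the 10 were apart with AKO below and 0 with AKO above. The share of all genes apart under that scaling is not given here, so that count stands without a background.

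**Figure D1:**
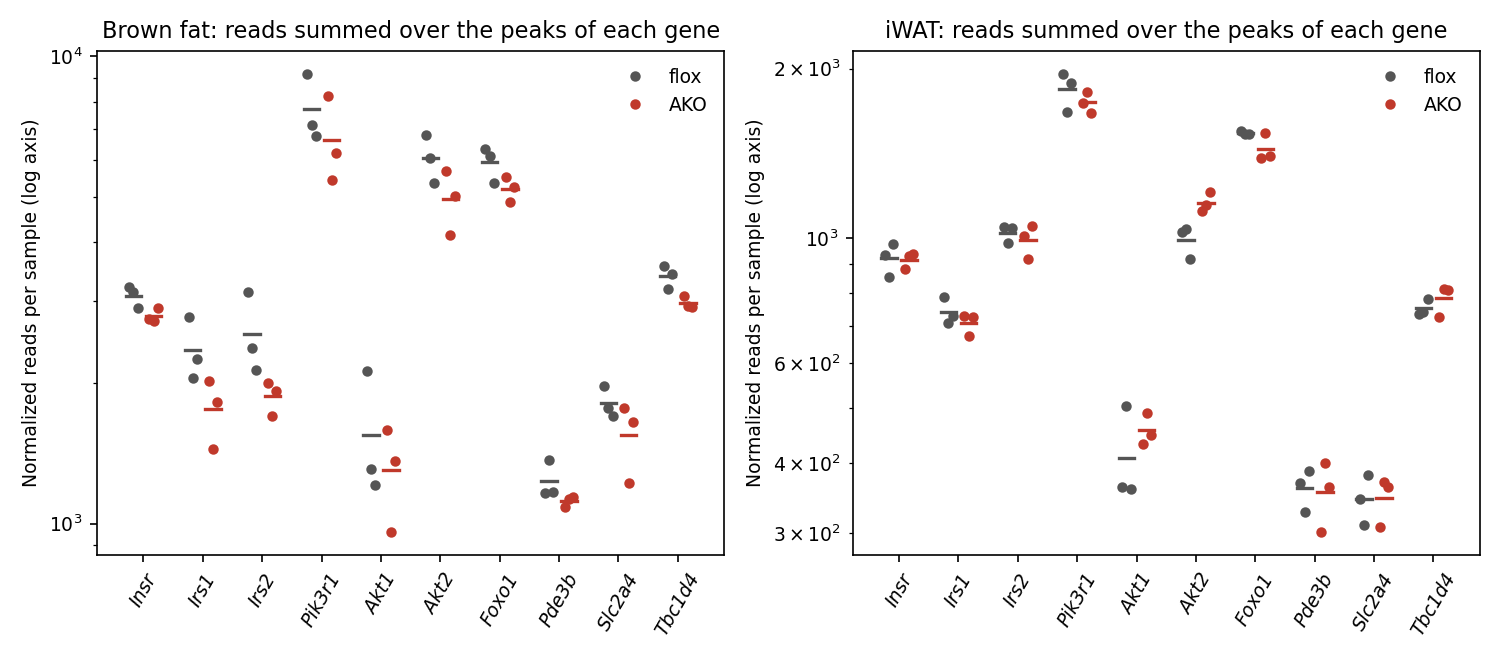
Normalized reads summed over the peaks of each gene (log axis) for every sample, flox in grey and AKO in red, with the group mean as a bar, in brown fat (left, single mice) and iWAT (right, aliquots of 1 pool per genotype). In brown fat all 10 AKO means lie under the flox means, and in iWAT Akt2 is the only gene whose AKO and flox samples do not overlap.

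The test of brown fat followed the study in taking the score of each sample on the first principal component (PC1) of all peaks as a covariate. With PC1 in the fit, the log2 fold changes of the 10 sums, AKO against flox, lay between -0.15 and 0.31, with 7 of 10 below 0, and 40% of all genes below 0. No sum of the 10 passed limma at an adjusted p of 0.1, the smallest adjusted p being 0.561, for Akt1. Of 17116 genes 1 passed (0.00584%), 1700080N15Rik, named after its value was seen. At an unadjusted p under 0.05, 0 of the 10 and 9.58% of all genes passed. DESeq2, edgeR and limma-trend called 0 of the 10 as well, and 0.685%, 0.45% and 0.351% of all genes. Without PC1 all 10 log2 fold changes were below 0, from -0.43 for Irs2 to -0.14, against a median of -0.02 over all genes. Standard errors of the 10 values with PC1 ran from 0.113 to 0.154.

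In iWAT the 10 sums sat close to each other between genotypes, except for Akt2. Akt2, the isoform that carries the insulin signal to GLUT4 in adipocytes, held 1026, 1040 and 918 normalized reads in flox and 1116, 1145 and 1210 in AKO aliquots. Every AKO aliquot lay above every flox aliquot, a ratio of means of 1.16. The log2 fold change was 0.22 with an SE of 0.0889. By limma its p was 0.0424 and its adjusted p 0.319. It passed edgeR (adjusted p = 0.0401) and limma-trend (0.0482), and DESeq2 gave 0.103. The other 9 log2 fold changes lay between -0.09 and 0.18, and in these 9 genes the groups overlapped. Over all genes in iWAT, limma called 0%, and 14.9% had an unadjusted p under 0.05. DESeq2 called 2.31%, edgeR 6.37% and limma-trend 5.79%, and 10.6% of genes had every AKO aliquot above and 10.8% below every flox aliquot. With that background, 1 of 10 genes apart is about the share seen over all genes.

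No single member peak passed limma either. In brown fat limma called 0 of 121 member peaks and 0% of all peaks. The Smarcd1 peak within the targeted gene did not pass either, with a log2 fold change of -2.98 and a limma adjusted p of 0.269. A count of 0 calls here therefore does not show that no peak differed. DESeq2, edgeR and limma-trend with the same design also called 0 members, and 0.408%, 0.143% and 0.0905% of all peaks. At an unadjusted p under 0.05, 10 member peaks were lower and 3 higher in AKO, where 5.59% of all peaks were lower and 3.46% higher. Every AKO mouse lay below every flox mouse at 15 member peaks (12.4%), and above at 4 (3.31%), against 8.84% and 8.77% of all peaks. The median log2 fold change was -0.04 over the members and 0.01 over all peaks with PC1. Without AKO 3 the member median was 0.01, with 58 of 121 values below 0 in place of 70. Without PC1 these medians were -0.20 and -0.01.

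In iWAT limma called 0 of 77 member peaks and 0% of all peaks. At an unadjusted p under 0.05, 4 members were lower and 5 higher, against 7.42% and 7.61% of all peaks. The groups were apart at 7 members with AKO below (9.09%) and 6 with AKO above (7.79%), against 10.3% and 10.6% of all peaks. DESeq2 called 2 members, limma-trend 3 and edgeR 4, where 1.18%, 3.64% and 4.67% of all peaks were called. The members called by DESeq2 were a Foxo1 peak that was lower and an Akt2 peak that was higher in AKO. The median log2 fold change was -0.02 over the members and 0.00 over all peaks.

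**Figure D2:**
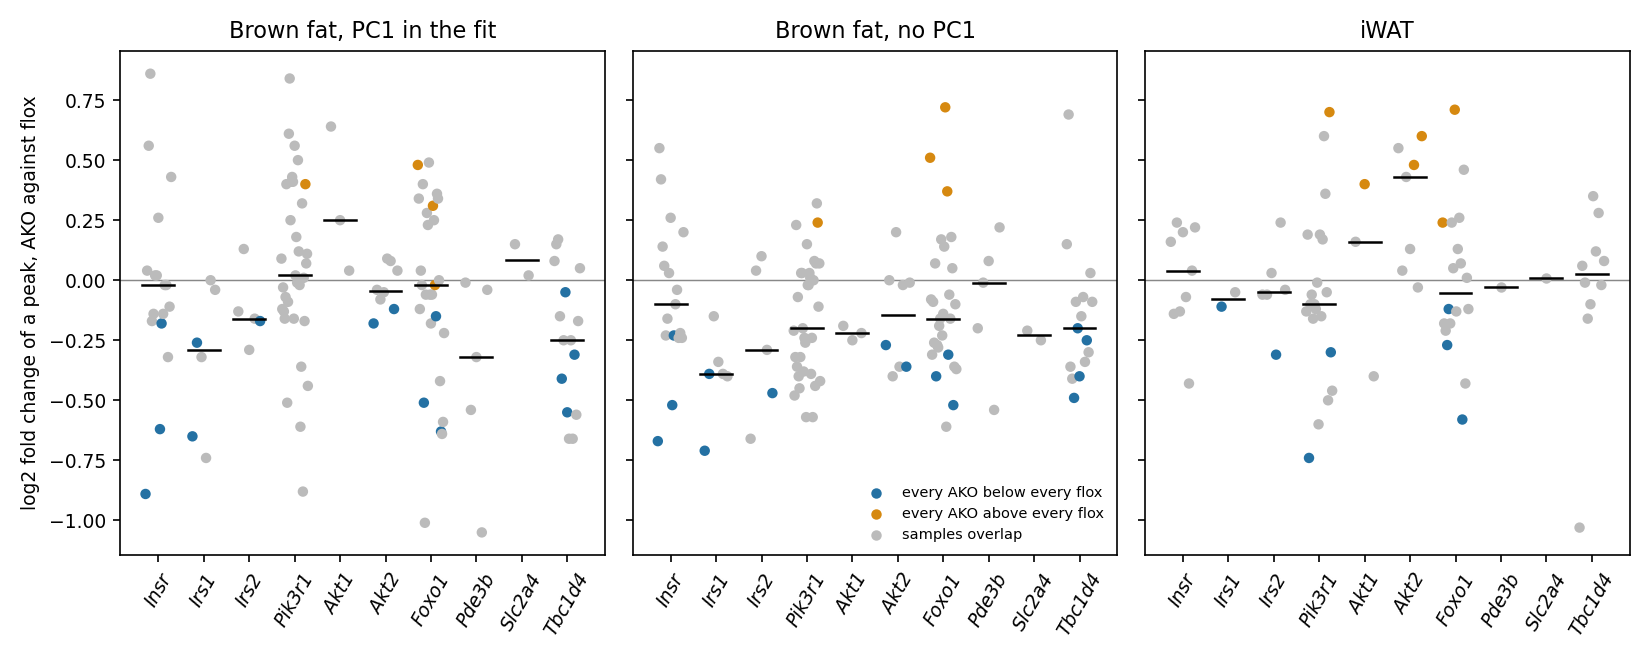
Log2 fold change of each member peak, AKO against flox, by gene, in brown fat with and without PC1 in the limma fit and in iWAT. Blue and orange points are peaks where every AKO sample lies below or above every flox sample, grey points are the rest and black bars are the median of the gene. Without PC1 most brown fat points sit under 0, and in iWAT the Akt2 median is 0.43.

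Peaks at the start sites of the 10 genes shared their lowest sample, and 9 of them their highest, in brown fat, while the order of the other samples differed between genes. The Irs2 peak, which begins 43 bp before the GENCODE start and covers the RefSeq one, had the lowest value without PC1. It held 1917, 1209 and 992 normalized reads in flox and 1003, 670 and 864 in AKO mice. The flox mean of 1373 ± 484 (SD, n = 3) stood against 846 ± 167 in AKO, and the groups overlapped only through flox 3. The log2 fold change of this peak was -0.13 (SE 0.207) with PC1 and -0.66 without it. At the start of Slc2a4, the GLUT4 gene, flox mice held 1640, 1460 and 1428 and AKO mice 1486, 1028 and 1334. The groups overlapped there, and the value was 0.02 (SE 0.183) with PC1 and -0.25 without. Over the 10 start-site peaks, log2 fold changes ran from -0.13 to 0.12 with PC1 and from -0.66 to -0.09 without it. No start-site peak had an unadjusted limma p under 0.05, the smallest being 0.515.

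AKO 2 was the lowest sample at all 10 start sites and flox 1 the highest at 9 of 10. Over all brown fat peaks that cover a start site, AKO 2 was lowest at 51% and flox 1 highest at 49.5%. AKO 2 had the highest PC1 score, 112, and the fewest reads in peaks, 6336670. Flox 1 had the lowest score, -98.2, and the most reads, 27500738. Flox 2 and flox 3 had scores of -41.8 and 14.6, and AKO 1 and AKO 3 of -0.617 and 13.5. Flox 1 and flox 2 thus lay below every AKO mouse on PC1. PC1 is partly aligned with genotype in brown fat, so fits with and without it cannot fully part the 2. PC1 held 55.6% of the variance of all peaks, and the part of depth in these values was not tested. In iWAT the start-site peaks had log2 fold changes of -0.40 to 0.08, the lowest being that of the small Akt1 peak, with no unadjusted p under 0.05 and a smallest p of 0.144.

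**Figure D3:**
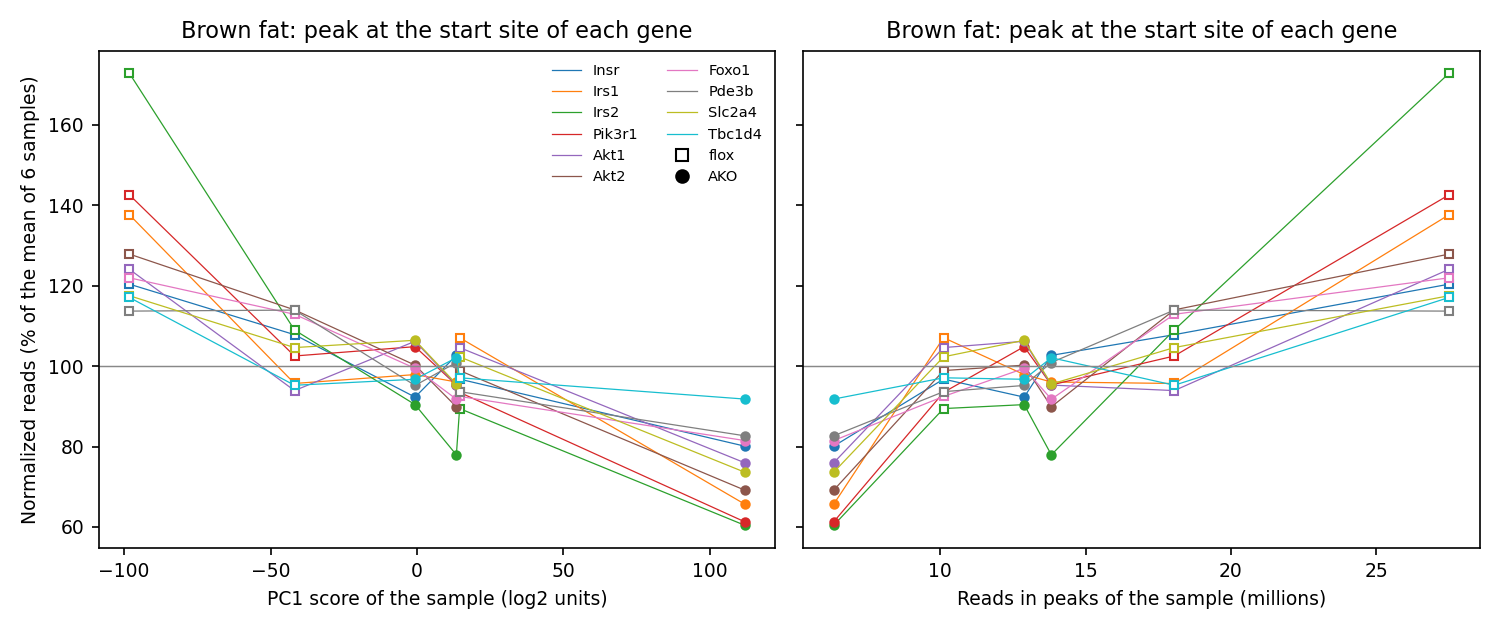
Normalized reads in the start-site peak of each gene, as a percentage of the mean of the 6 brown fat samples, against the PC1 score of the sample (left) and its reads in peaks (right). Squares are flox and filled circles AKO mice, 1 colour per gene, and lines join samples in the order of the x axis. The flox sample of lowest score and greatest depth lies above 100% for every gene, and the AKO sample of highest score and least depth lies below 100% for every gene.

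Insr had 17 peaks in brown fat and 9 in iWAT. Its brown fat peak of smallest p lay at chr8:3139581-3139945, past the end of the main Insr transcript and inside Vmn2r-ps88, a vomeronasal receptor pseudogene. It held 91.4, 99 and 113 in flox and 47.4, 69.5 and 74.8 in AKO mice. The groups did not overlap, and the log2 fold change was -0.89 (SE 0.245, limma adjusted p = 0.463). Without AKO 1 it was -0.58. The pseudogene belongs to a large family, and the authors kept only high-quality reads. How well reads of its copies were placed was not tested, so this value is uncertain. The intronic Insr peak printed above held 94.6, 93.8 and 97 in flox and 70.1, 73.4 and 55.6 in AKO mice. All AKO mice lay below all flox mice, and the log2 fold change was -0.62 with PC1 (SE 0.201, adjusted p = 0.489) and -0.52 without. In iWAT the Insr values ran from -0.43 to 0.24, and at none of the 9 peaks were the groups apart.

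Of the 6 Irs1 peaks in brown fat, 5 lay in intron 1 and 1 over the start. The peak of smallest p was the intronic one at chr1:82242874-82243674. It held 325, 317 and 298 in flox and 256, 193 and 140 in AKO mice. The flox values were close together and the AKO values spread, all below flox, with a log2 fold change of -0.65 and an adjusted p of 0.578. The value was -0.26 without AKO 3 and -1.07 without AKO 1. Without PC1 all 6 Irs1 peaks had values below 0, with a median of -0.39. In iWAT the table held only 2 Irs1 peaks, at -0.11 and -0.05.

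Irs2 had an upstream peak at about 76 kb that was present in both tables. In iWAT it spanned chr8:11084194-11085537 and held 210, 182 and 212 in flox and 158, 162 and 167 in AKO aliquots. All AKO aliquots lay below the flox aliquots, with a log2 fold change of -0.31 (SE 0.129, limma adjusted p = 0.328). In brown fat the same region held 211, 338 and 301 in flox and 261, 380 and 268 in AKO mice. The groups overlapped there, and the log2 fold change was -0.29 with PC1 but 0.10 without it. With PC1 it was -0.14 without flox 2 and -0.53 without flox 3.

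Pik3r1, which encodes the regulatory subunits of phosphoinositide 3-kinase, had the most peaks, 33 in brown fat and 20 in iWAT, up to 346014 bp from the start. In iWAT the peak of smallest p lay beyond the end of the gene. It held 71.3, 54.5 and 71.4 in flox and 36.9, 38.8 and 40.6 in AKO aliquots. The AKO aliquots were close together and all below flox, with means of 65.7 ± 9.75 and 38.8 ± 1.87 (SD, n = 3). The log2 fold change was -0.74 (SE 0.153, limma adjusted p = 0.151). edgeR gave an adjusted p of 0.0657, limma-trend 0.0949 and DESeq2 0.182. A narrow upstream peak at chr13:102023725-102023880 went the other way, with 20, 17.8 and 21.5 in flox and 27.7, 37.7 and 33.1 in AKO. Its log2 fold change was 0.70 (SE 0.16, adjusted p = 0.157), and edgeR gave 0.254. In brown fat the Pik3r1 peak of smallest p lay in intron 8 and held 168, 137 and 75 in flox and 190, 79.2 and 122 in AKO mice. These groups overlapped, and its log2 fold change was 0.84 with PC1 and 0.03 without.

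Akt1, the more widely used kinase isoform, had 3 peaks in each table. The iWAT peak in intron 2 at chr12:112671014-112671338 held 149, 173 and 132 in flox and 205, 208 and 186 in AKO aliquots. All AKO aliquots lay above flox, with a log2 fold change of 0.40 (SE 0.149, limma adjusted p = 0.273). edgeR gave 0.0881 and DESeq2 0.226. The 3 brown fat peaks had values from 0.04 to 0.64 with PC1 and were all below 0 without it. The one of smallest p held 865, 401 and 330 in flox and 588, 290 and 449 in AKO mice, so that the groups overlapped.

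Akt2 had 6 of 7 iWAT values above 0, with a median of 0.43. The peak over an internal RefSeq start site, at chr7:27606967-27607982, held 199, 206 and 181 in flox and 246, 292 and 278 in AKO aliquots. No aliquots overlapped, and the means were 195 ± 12.9 and 272 ± 24 (SD, n = 3). The log2 fold change was 0.48 (SE 0.136, limma adjusted p = 0.197). It passed DESeq2 (adjusted p = 0.0597), edgeR (0.0149) and limma-trend (0.0269). The small peak in intron 4 at chr7:27628239-27628489 held 72.7, 53.4 and 52.5 in flox and 89.9, 84.5 and 95.2 in AKO. These groups were apart as well, at 0.60 (SE 0.165, adjusted p = 0.19), and no tool called it. The peak over the main Akt2 start held 234, 249 and 234 in flox and 231, 243 and 263 in AKO, a difference of 0.04. In brown fat the 8 Akt2 values lay between -0.18 and 0.09, and 2 peaks had every AKO mouse below every flox mouse, as did 8.84% of all peaks.

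Foxo1, the transcription factor that Akt excludes from the nucleus, had 27 brown fat and 18 iWAT peaks, and their values lay on both sides of 0 in each table. In iWAT the peak printed above, at chr3:52458084-52458991 and about 190 kb past the start, held 156, 129 and 144 in flox and 99.1, 98.2 and 87.7 in AKO aliquots. The aliquots did not overlap, and the means were 143 ± 13.6 and 95 ± 6.35 (SD, n = 3). The log2 fold change was -0.58 (SE 0.138, limma adjusted p = 0.165). DESeq2 called it at 0.099, edgeR at 0.0313 and limma-trend at 0.0428. In brown fat the same region held 152, 185 and 224 in flox and 180, 201 and 251 in AKO mice. There the groups overlapped and the value was 0.00 (SE 0.253).

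Another Foxo1 peak, about 72 kb upstream, had every AKO sample above every flox sample in both depots. In brown fat flox mice held 95.1, 97.5 and 81.5 and AKO mice 120, 147 and 127. In iWAT it held 42.1, 51.1 and 49.1 in flox and 56.5, 53.7 and 57.7 in AKO. The log2 fold changes were 0.48 (SE 0.205, adjusted p = 0.557) and 0.24 (SE 0.135, adjusted p = 0.45), and neither passed. The brown fat peak of smallest p lay 198453 bp past the start, beyond the end of the gene. It held 159, 195 and 160 in flox and 103, 133 and 123 in AKO mice. These were apart, at -0.63 (SE 0.212, adjusted p = 0.499).

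Pde3b had 5 peaks in brown fat, all with values at or below -0.01 with PC1, and 1 in iWAT, over its start. Without PC1, 3 of the 5 brown fat values were below 0, with a median of -0.01. The genotypes overlapped at each of these 5 peaks. The brown fat peak of smallest p was a narrow one in intron 1 that held 39.2, 55.4 and 40.1 in flox and 16.5, 50.2 and 32.6 in AKO mice. The groups overlapped, and its log2 fold change of -1.05 (SE 0.412, adjusted p = 0.535) was -0.54 without PC1. With PC1 it was -0.42 without AKO 1 and -1.80 without flox 3. In iWAT the start-site peak differed by -0.03.

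Tbc1d4, the Akt substrate on the path to GLUT4, had 11 of 15 brown fat values below 0, with a median of -0.25 with PC1 and -0.20 without. At 4 of the 15 peaks every AKO mouse lay below every flox mouse, and at none above, where 8.84% and 8.77% of all brown fat peaks did. The peak of smallest p, in intron 1, held 340, 340 and 426 in flox and 255, 288 and 290 in AKO mice. The means were 368 ± 49.5 and 277 ± 19.7 (SD, n = 3), and the log2 fold change was -0.55 (SE 0.19, limma adjusted p = 0.504). In iWAT the overlapping peak held 92, 65.6 and 80.9 in flox and 54.2, 92.5 and 78.1 in AKO. The iWAT groups overlapped, at -0.10, and none of the 10 Tbc1d4 peaks in iWAT was apart. Slc2a4, the transporter gene itself, had 2 peaks in brown fat, at 0.02 and 0.15, and 1 in iWAT, at 0.01.

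Of the 121 brown fat member peaks, 60 (49.6%) overlapped an iWAT peak by at least 1 bp, as did 53.8% of all brown fat peaks. Of the 77 iWAT members, 63 (81.8%) overlapped a brown fat peak, as did 80.5% of all iWAT peaks. This gave 63 pairs, of which 22 had both values below 0, 15 both above and 24 of opposite sign, while in the other 2 the brown fat value was 0.00. Across the 63 pairs Pearson's r was 0.16 and Spearman's rho 0.15, as a description over regions that share libraries and genes. In 1 pair, the upstream Foxo1 region, the genotypes were apart in the same direction in both depots, where 2.25% of all pairs were. No member pair was apart in opposite directions, where 1.47% of all pairs were.

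**Figure D4:**
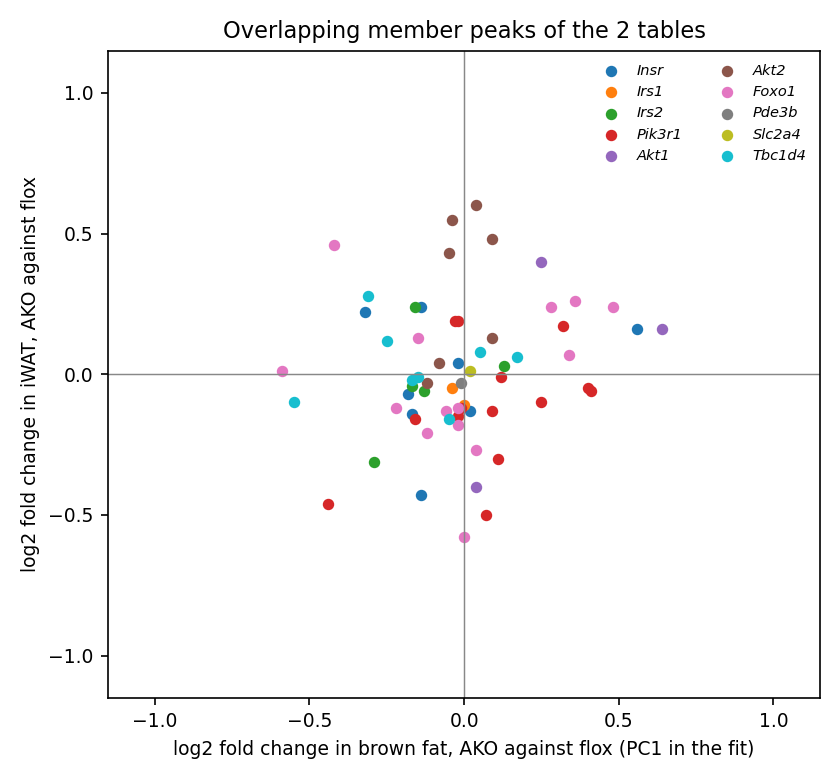
Log2 fold changes, AKO against flox, of the 63 pairs of overlapping member peaks, brown fat (PC1 in the fit) on the x axis and iWAT on the y axis, coloured by gene. The points show little common order, with r = 0.16, and 4 of the Akt2 points lie between 0.43 and 0.60 on the iWAT axis while near 0 in brown fat.

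Member peaks were searched for motifs of factors that act in adipocytes, on both strands. The PPAR response element was written as AGGTCANAGGTCA with up to 3 mismatches, and 52.1% of brown fat members held it (Wilson 95% interval 43.2 to 60.8) against 49.8% of all brown fat peaks. In iWAT it was 49.4% (38.5 to 60.3) against 42.1%. The EBF motif TCCCNNGGGA was in 4.96% of brown fat and 5.19% of iWAT members, against 4.44% and 3.07%. The C/EBP motif TTGCGCAA with up to 1 mismatch was in 16.5% and 15.6%, against 13.3% and 12.5%. The NF1 motif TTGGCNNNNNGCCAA with up to 1 mismatch was in 3.31% and 2.6%, against 3.38% and 2.39%. The forkhead motif GTAAACA, the kind of site that Foxo1 itself can bind, was in 9.92% of brown fat members (5.76 to 16.5) and 14.3% of iWAT members (8.17 to 23.8), against 6.48% and 5% of all peaks. Peaks of different width hold different numbers of chance matches, the median width being 502 bp in brown fat members and 482 bp in all brown fat peaks, and 393 and 432 bp in iWAT. The intervals cover counting error only.

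A further 57 genes of the pathway were counted as a list: other receptors and adaptors, the mTOR branch and the vesicle machinery of GLUT4. All 57 had brown fat peaks, 364 in all, and 56, without Tsc2, had iWAT peaks, 227 in all. limma called none of these peaks. In brown fat 17 were lower and 15 higher at an unadjusted p under 0.05, and the genotypes were apart at 10.4% with AKO below and 8.52% with AKO above. Over all brown fat peaks 5.59% were lower and 3.46% higher at that p, and 8.84% and 8.77% were apart. In iWAT 20 were lower and 10 higher, and 13.7% and 8.37% were apart, where 7.42% and 7.61% of all iWAT peaks were lower and higher and 10.3% and 10.6% apart. The Rab10 peak, at -9656 bp from the start of the gene for a small GTPase that moves GLUT4 vesicles, held 21.4, 23.3 and 25.8 in flox and 46.1, 60.5 and 44.9 in AKO aliquots. It did not overlap between genotypes, at 1.06 (SE 0.164, limma adjusted p = 0.149, DESeq2 0.0827). Of the iWAT peaks with lower values, the Grb2 peak of the adaptor that links receptors to Ras held 141, 135 and 142 in flox and 103, 104 and 90.9 in AKO, at -0.49 (SE 0.127, adjusted p = 0.182).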

How the data were processed

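ATAC-seq libraries were made from 6 brown fat and 6 iWAT samples. Per the labels and the study's methods, the authors aligned reads to mm10 (BWA 0.7.17-r1188, Picard 2.8.14), called broad peaks (MACS2 2.1.1.20160309), merged those found in at least 2 replicates per group, linked each to its closest gene and counted autosomal reads. The deposited signal values are these reads divided by a DESeq2 1.20.0 size factor per sample, and every value times its size factor came within 3.44e-06 of a whole read count. The tables also hold the authors' own fold changes and p-values, which were not used, and 0 columns of unmapped samples.

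Each table was fitted alone. limma 3.58.1 (R 4.3.3) was run on log2(normalized reads + 1) over all peaks, or over reads summed per gene, p-values adjusted by Benjamini-Hochberg and called under 0.1. Brown fat fits had PC1 as a covariate, as in the study's methods. Log2 fold changes are on this scale. DESeq2 1.42.0 and edgeR 4.0.16 were run on the recovered reads as alternatives. Scripts were tested on simulated data with no PC1 covariate, so the brown fat fit with PC1 was not tested in this way. Peak starts are 1-based, places come from GENCODE vM21, and overlaps used bedtools 2.31.1.

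By rule, the peaks to name for each gene and table were the one at the start and that of smallest p. Of the other pathway genes, up to 3 peaks per direction were to be named. Only some of these peaks are given in the text, and further peaks were named after their values were seen. Members and lists were chosen with earlier results of these data known. DESeq2 without PC1, and the alternatives of the counts without overlap and of the medians, were added after seeing the data. Some items are not reported here.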

Additional observations from a re-analysis of the deposited data

How the results depend on the processing

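Brown fat calls were 0 among member peaks and gene sums under every alternative run. In iWAT the 0 member peaks called by limma became 3 with limma-trend, 2 with DESeq2 and 4 with edgeR, and the gene sums called became 1 (Akt2) with limma-trend and 1 with edgeR. Over all peaks limma called 0 in each table, against 174 (DESeq2), 84 (edgeR) and 53 (limma-trend) in brown fat and 420, 1846 and 1440 in iWAT.

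The median of the brown fat member peaks was -0.20 without PC1 and -0.18 with DESeq2 without PC1, and -0.08 to 0.01 with 1 mouse left out, and that of iWAT 0.16 with PC1 in the fit, where PC1 separates the genotypes. Without PC1 the brown fat peaks of smallest p turned in Irs2 (0.10, DESeq2 0.09), Akt1 (-0.19, DESeq2 -0.27) and Slc2a4 (-0.21, DESeq2 -0.18). With PC1 the iWAT peaks turned in Irs2 (0.20), Pik3r1 (0.25), Akt1 (-0.03) and Pde3b (0.35). The Slc2a4 peak in iWAT was -0.08 after GC centring. Leaving out 1 aliquot gave -0.12 to 0.08 for Pde3b and -0.07 to 0.09 for Slc2a4 in iWAT. The cause of these turns was not tested. With 1 mismatch fewer, the PPAR response element was in 14% of brown fat and 9.09% of iWAT members, against 11.9% and 8.74% of all peaks.

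Within 50 kb of the start, where fewer peaks remain, 8 of 60 brown fat members were apart with AKO below (13.3%) and 0 with AKO above. Over all brown fat peaks at any distance, 8.84% and 8.77% were. In iWAT 3 of 40 members were apart with AKO below and 3 with AKO above, against 10.3% and 10.6% of all iWAT peaks. Leaving out 1 sample, which makes groups part more easily, gave 19 to 34 below and 4 to 8 above in brown fat (15.7% to 28.1% and 3.31% to 6.61% of members, against 12.3% to 16.9% and 11.4% to 19.8% of all peaks), highest without AKO 1 (below) and without flox 1 or flox 3 (above). In iWAT it gave 9 to 13 below and 8 to 11 above (11.7% to 16.9% and 10.4% to 14.3%, against 14.2% to 18.2% and 14.2% to 17.6% of all peaks), highest without flox 2 or AKO 2 (below) and without flox 2 or AKO 1 (above).

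Same-numbered samples did not all deviate together (correlations of 0.494, 0.063 and -0.236 in brown fat and -0.039, -0.05 and -0.057 in iWAT). With 3 samples per group, these correlations cannot decide whether the numbers pair samples. With the replicate block 0 member peaks were called in either table, and the medians were -0.10 and -0.02. Depth in peaks differed more between brown fat mice than between iWAT aliquots, and its part in the values was not tested.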
